A study of Mus musculus with 22 samples.

Results

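The ATAC sites lost after TERRA knockdown are stretches of chromatin that were called accessible in both control libraries and in neither knockdown library. They were taken as the peaks of ATAC scramble KD replicate 1 that share at least 1 bp with a peak of scramble KD replicate 2 and with no peak of TERRA KD replicate 1 or 2. This gave 2630 sites of the 78571 peaks in the list of scramble KD replicate 1, of which 65915 were replicated in the second scramble KD list. The sites were thus chosen by the ATAC peak calls of all 4 libraries, so the ATAC values below describe the sites and are not tested. "Lost" means that no peak was listed. Read coverage was not analysed here, so reads below the calling cutoff may remain at these positions.

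The series measured ATRX, the histone mark H3K9me3, DNA G-quadruplexes (G4) and chromatin accessibility in mouse ES cells of the hybrid background CAST/Ei x 129/Sv/Jae, an XX line grown in serum with LIF. All cells were taken off their feeder layer and received an LNA gapmer by nucleofection at 4 µM for 12 h, either a scramble sequence (scramble KD) or one antisense to TERRA (TERRA KD). Each assay has 2 libraries per condition, 16 peak lists in all. The labels do not say whether replicates are separate cultures, so the p values measure the spread between these libraries only.

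TERRA is the RNA transcribed from telomeres, made largely of UUAGGG repeats, and it can fold into G4 structures as the G-rich DNA strand does. ATRX is a chromatin remodeller that, with DAXX, deposits histone H3.3 at repeats and is known to bind G4-forming DNA, and H3K9me3 marks heterochromatin. ATAC-seq marks DNA that a transposase can reach, chiefly promoters, enhancers and sites bound by CTCF.

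To show the DNA itself, 300 bp centred on the ATAC summit are given for 6 lost sites, read from the GRCm38 assembly of RefSeq on the plus strand. They are the 2 sites with the highest peak values, the highest one at a promoter, the highest with an ATRX peak in TERRA KD only, an intergenic one with a G4 peak in scramble KD only, and the highest with an ATRX peak in all lists; they were picked for display after the values were seen. Capitals mark letters that match one of 12 short motifs or a G4 motif, all spelled out further on, and a window without capitals holds none of them.
Ntm chr9:29173908-29174207: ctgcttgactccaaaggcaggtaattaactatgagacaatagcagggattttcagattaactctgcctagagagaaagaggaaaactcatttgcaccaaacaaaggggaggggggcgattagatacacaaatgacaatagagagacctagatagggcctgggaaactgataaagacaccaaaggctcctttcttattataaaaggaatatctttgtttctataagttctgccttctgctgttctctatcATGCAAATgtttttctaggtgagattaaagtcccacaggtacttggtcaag
Myof chr19:37881477-37881776: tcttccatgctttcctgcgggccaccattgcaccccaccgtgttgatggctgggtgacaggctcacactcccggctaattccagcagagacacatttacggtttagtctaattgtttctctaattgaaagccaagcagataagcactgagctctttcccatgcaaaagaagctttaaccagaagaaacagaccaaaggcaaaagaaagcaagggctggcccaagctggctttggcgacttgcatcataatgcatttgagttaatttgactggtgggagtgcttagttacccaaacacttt
Jmy chr13:93499965-93500264: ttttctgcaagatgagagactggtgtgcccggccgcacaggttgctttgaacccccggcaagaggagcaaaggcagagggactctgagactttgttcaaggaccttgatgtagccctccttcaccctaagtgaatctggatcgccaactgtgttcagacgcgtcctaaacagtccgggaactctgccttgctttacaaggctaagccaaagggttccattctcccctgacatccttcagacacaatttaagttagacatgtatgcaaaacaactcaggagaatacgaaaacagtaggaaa
Dnm2 chr9:21455225-21455524: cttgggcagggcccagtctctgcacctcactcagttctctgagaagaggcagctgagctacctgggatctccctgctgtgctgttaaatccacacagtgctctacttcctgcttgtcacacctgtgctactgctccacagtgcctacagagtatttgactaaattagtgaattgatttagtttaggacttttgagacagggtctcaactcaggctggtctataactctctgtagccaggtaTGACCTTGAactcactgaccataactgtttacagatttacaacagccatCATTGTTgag
Crp chr1:172760272-172760571: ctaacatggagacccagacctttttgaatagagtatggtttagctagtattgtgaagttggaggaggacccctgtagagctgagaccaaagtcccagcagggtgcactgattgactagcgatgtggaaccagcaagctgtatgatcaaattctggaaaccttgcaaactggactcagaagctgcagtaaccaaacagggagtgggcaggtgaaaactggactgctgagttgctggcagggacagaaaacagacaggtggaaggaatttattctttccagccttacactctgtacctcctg
Erdr1 chrY:90803450-90803749: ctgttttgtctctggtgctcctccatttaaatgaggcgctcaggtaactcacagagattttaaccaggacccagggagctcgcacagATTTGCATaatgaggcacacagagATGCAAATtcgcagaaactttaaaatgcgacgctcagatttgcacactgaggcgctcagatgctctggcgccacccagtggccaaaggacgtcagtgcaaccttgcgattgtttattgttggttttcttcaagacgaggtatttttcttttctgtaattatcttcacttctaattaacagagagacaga
The Ntm window holds the octamer motif at bases 250 to 257, and the Erdr1 window holds it at bases 88 to 95 and 112 to 119. The Dnm2 window holds the ESRRB motif at bases 242 to 250 and the SOX motif at bases 291 to 297. A match of letters is a description and not a bound site.

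The 4 ATAC libraries held 5976014 to 7883648 tags after filtering and 78571 to 103911 peaks, and both TERRA KD lists were longer than the scramble KD list of the same number. The depth of the ChIP libraries ran from 4104486 to 15506154 tags for ATRX, 5435286 to 13898785 for H3K9me3 and 2961038 to 24588605 for G4. Of 8 ES cell markers, 7 had an ATAC peak within 1 kb of a transcription start site (TSS) in scramble KD replicate 1, where Nanog had none, and 8 did in each of the other 3 lists. Of 12 markers of feeder fibroblasts, 7 and 7 had one in the scramble KD lists and 5 and 8 in the TERRA KD lists.

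The lost sites made up 3.99% of the replicated scramble KD sites. Another 6639 replicated sites had a peak in 1 TERRA KD list (intermediate sites) and 56646 had one in both (retained sites). The mirrored rule, applied to the 73801 peaks of TERRA KD replicate 1 that were replicated in TERRA KD, gave 4713 sites with no scramble KD peak, 6.39% of them. Peak calls thus turned over in both directions, and more sites were listed in TERRA KD alone than were lost. The TERRA KD ATAC library was also the deeper of each pair. It held 6615112 against 5976014 tags in replicate 1 and 7883648 against 7499296 in replicate 2. The part of depth in these counts was not tested.

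The lost sites were short and weak peaks. Their median length was 339 bp, against 612 bp for retained sites. The median pileup at the summit, the number of extended reads that stack there, was 7 in scramble KD replicate 1 and 8 in replicate 2, against 14 and 20 at retained sites. The median fold enrichment over the local background was 3.80 against 5.97 in replicate 1, and 3.71 against 6.89 in replicate 2. On the −log10 scale of the p that the peak caller gives, the lost sites had a median of 4.86 in replicate 1 and 4.90 in replicate 2, where the authors' cutoff of 0.01 corresponds to 2. For retained sites the medians were 10.04 and 14.6. Of the lost sites, 565 (21.5%) reached 5 in both scramble KD lists.

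**Figure D1:**
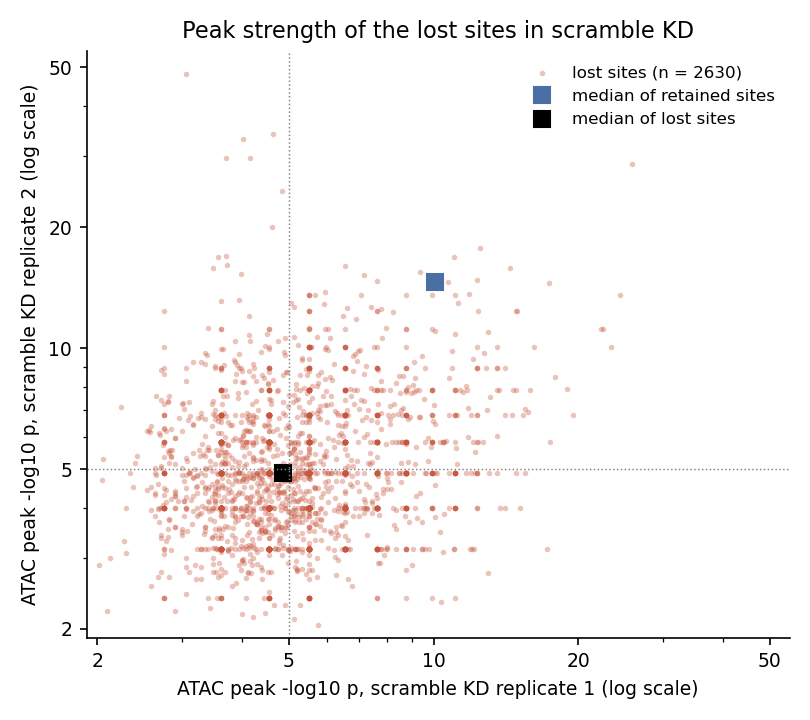
Each point is 1 of the 2630 lost sites, placed by the −log10 p of its ATAC peak in scramble KD replicate 1 (x axis) and replicate 2 (y axis), both on log scales, with dotted lines at 5. Squares mark the medians, 4.86 and 4.90 for lost sites and 10.04 and 14.6 for retained sites, and 2065 points lie below 5 in at least 1 replicate.

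Ordered by the lower of the 2 values of −log10 p, the share of replicated sites that were lost fell from bin to bin. It was 18.7% (95% exact Clopper-Pearson interval 16.5 to 20.9) of the 1238 sites under 3 and 16.2% (15.3 to 17.0) of the 7093 sites from 3 to 4. It was 8.42% from 4 to 5, 3.52% from 5 to 7 and 0.977% from 7 to 10. Above 10, 23 of 26574 sites were lost, 0.0866% (0.0549 to 0.130). Intermediate sites followed the same order, from 32.4% of the sites under 3 to 0.881% of those from 10 to 20. These intervals, and those that follow, cover counting error only.

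**Figure D2:**
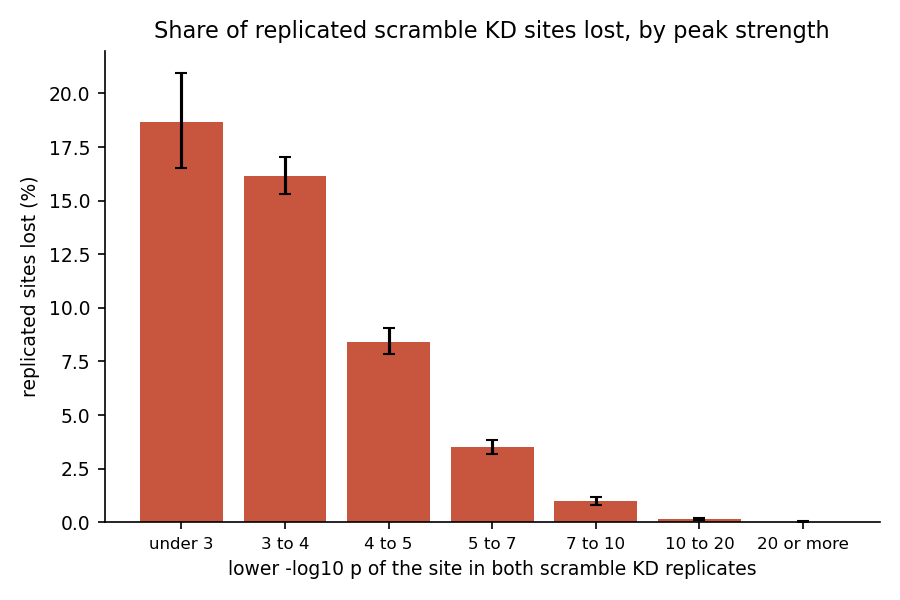
Bars give the percent of replicated scramble KD sites that had no peak in either TERRA KD list, in bins of the lower −log10 p of the site over both scramble KD replicates, with 95% exact intervals. The share was 18.7% in the weakest bin and 0.142% from 10 to 20.

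Many lost sites lay near a TERRA KD peak that the rule did not count. The gap to the nearest TERRA KD peak of either list had a median of 3741 bp, with quartiles of 1104 and 10528 bp. A TERRA KD peak lay within 500 bp of 397 lost sites (15.1%) and within 1 kb of 616 (23.4%), while 686 (26.1%) had none within 10 kb. Just inside the rule, 15 lost sites lay at most 10 bp from a TERRA KD peak. Just outside it, 22 other replicated sites shared at most 10 bp with one. The 616 sites with a TERRA KD peak within 1 kb were more often at a promoter, 13.3% (10.7 to 16.3) within 1 kb of a TSS, than the 686 without one within 10 kb, where it was 1.60% (0.803 to 2.85).

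The site with the highest peak values lay in an intron of Ntm, at chr9:29173796-29174320. Ntm encodes neurotrimin, a cell adhesion protein of neurons. Its pileup was 24 in scramble KD replicate 1 and 27 in replicate 2, and its −log10 p 25.9 and 28.7. The nearest peaks of TERRA KD replicates 1 and 2 were 132547 and 48748 bp away. It was the one lost site that passed 20 in both scramble KD lists, out of 11131 replicated sites that did.

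The next highest sites were also far from promoters. A site at chr19:37881455-37882039, 161950 bp from the nearest TSS, that of the membrane repair gene Myof, had pileups of 32 and 31. One at chr12:9132509-9133107, 102767 bp from the TSS of Ttc32, had pileups of 16 and 17. A site in an intron of Elavl2, an RNA-binding protein of neurons, at chr4:91287247-91287777, had pileups of 14 and 19. All of these were high in both scramble KD replicates, and the nearest TERRA KD peak was at least 2878 bp away from each.

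A site at chr17:35548532-35549064 in an intron of Cdsn, which encodes an adhesion protein of the outer skin, had pileups of 22 and 22, and TERRA KD peaks began 445 and 658 bp from it. A site at chr16:25809528-25810197 lay in an intron of Trp63, a transcription factor of epithelia, with pileups of 23 and 13. A site 113176 bp upstream of Zeb2, a transcriptional repressor of epithelial genes, at chr2:45230444-45230863, had pileups of 22 and 13, the same lower −log10 p of 11.2 as the Trp63 site. The other members of this group lay nearest to Zfp608, Abca13, Sema6d, Adamts9, Gpbp1 and Erdr1, with pileups of 13 to 56 in replicate 1 and 14 to 57 in replicate 2.

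The Erdr1 site lay at chrY:90803511-90803797. Erdr1 is a gene of the pseudoautosomal region, whose copies on X and Y share reads. Its pileups were 56 and 57, the highest of the named sites in this group. An XX line has no Y chromosome, so ES cell reads placed on chrY came from another copy, such as that on X. The chrY position is thus a placement by alignment.

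By position, the lost sites were mainly intronic and intergenic. Of the 2630 sites, 1136 (43.2%, 41.3 to 45.1) lay in an intron and 1237 (47.0%, 45.1 to 49.0) between genes, with 116 (4.41%) in an exon. Within 1 kb of a TSS lay 141, or 5.36% (4.53 to 6.29), against 15421 of the retained sites, or 27.2% (26.9 to 27.6). When retained sites were weighted to the −log10 p of the lost ones in replicate 1, 19.0% of them lay within 1 kb of a TSS, so the difference, lost minus retained, went from −21.9 to −13.7 percentage points. Among the sites found in TERRA KD only, whose peaks were about as weak, with a median −log10 p of 4.35, the share was 7.15% (6.43 to 7.92). Of the intermediate sites, 8.90% (8.23 to 9.61) lay within 1 kb of a TSS, 39.7% in an intron and 47.0% between genes.

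**Figure D3:**
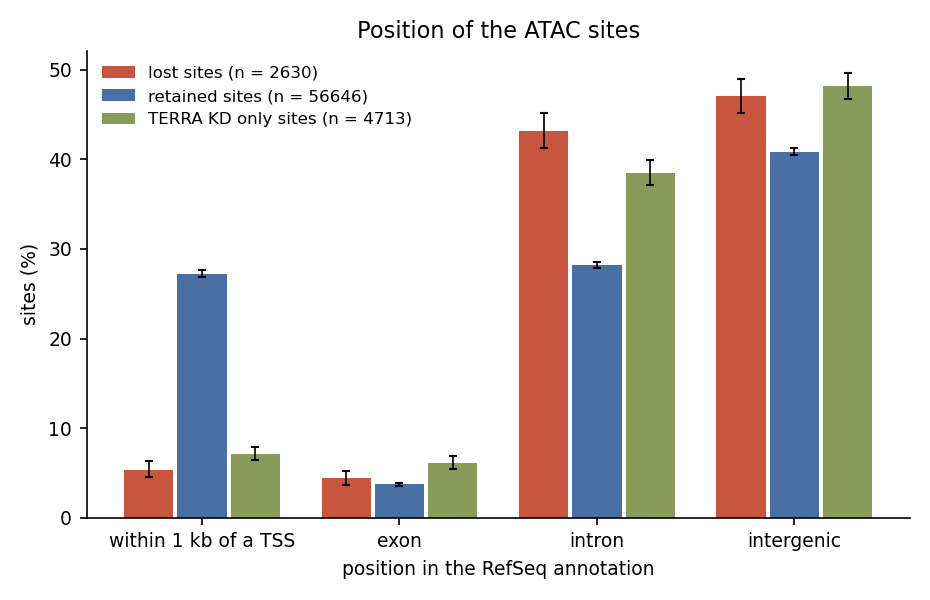
Bars give the percent of lost, retained and TERRA KD only sites within 1 kb of a TSS, in an exon, in an intron or between genes, with 95% exact intervals. The promoter share was 5.36% for lost sites, 27.2% for retained sites and 7.15% for sites found in TERRA KD only.

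The median distance from the summit to the nearest TSS was 25770 bp for lost, 22531 bp for intermediate and 14283 bp for retained sites. Of the lost sites, 503 (19.2%) were over 100 kb away. The lost sites had 2348 different nearest genes. A retained ATAC site lay within 1 kb of a TSS of 1528 of these genes, 65.1% (63.1 to 67.0), and of 58.2% (57.6 to 58.8) of all 26180 genes. Most of the nearest genes therefore kept an accessible promoter in all 4 lists.

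On chromosomes 1 to 19 and X, the lost share of replicated sites ran from 3.18% on chromosome 17 to 4.55% on chromosome 1. In the last 1 Mb of the chromosomes, next to the telomere on the long arm, 29 of 526 replicated sites were lost, 5.51%. Over all replicated sites it was 3.99%, and the difference, which rests on 29 sites, was not tested. Of 2630 stretches of 1 Mb that held a replicated site, 1488 held a lost one and 41 held at least 5. The fullest, chr7:73000001-74000000, had 9 of 51. Gene bodies rarely held several lost sites: 15 genes held at least 3, and Bcas3 held the most, 4 of its 12 replicated sites.

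At promoters, the highest site lay 307 bp upstream of the TSS of Jmy, an actin nucleator and p53 cofactor, at chr13:93499904-93500206. Its pileup was 13 in scramble KD replicate 1 and 20 in replicate 2, and the nearest TERRA KD peaks were 593 and 447 bp away. A site 646 bp into Cebpg, a bZIP transcription factor, at chr7:35055689-35056138, had pileups of 9 and 10, with TERRA KD peaks 329 and 325 bp away. A site 322 bp upstream of Cacna2d2, a calcium channel subunit, at chr9:107399403-107399706, had pileups of 10 and 14. The highest pileups of this group were those of a site at chr11:69919688-69919967, 808 bp into Eif5a, a translation factor, with 27 and 36. All of these had a TERRA KD peak within 1175 bp in TERRA KD replicate 1.

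The remaining named promoter sites were those of Gm11963, Ttc22, Pcdhgb2, Sphkap, Rbfaos and Phf23. Their pileups lay between 9 and 25 in replicate 1, and replicate 2 gave 11 to 29. The gaps to the nearest TERRA KD peak ran from 222 to 4272 bp over both TERRA KD lists.

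Few ATRX peaks lay on the lost sites. In scramble KD replicates 1 and 2, 18 (0.684%) and 13 (0.494%) of the 2630 sites carried one, and in TERRA KD 80 (3.04%) and 60 (2.28%). The background over all replicated sites was 0.775% and 0.410% for scramble KD, against 7.57% and 3.36% for TERRA KD. Both TERRA KD libraries stood above both scramble KD libraries at the lost sites, by a mean of 2.07 percentage points, which has an exact permutation p of 0.33 (two-sided), the smallest that 2 libraries against 2 allow. The ATRX lists themselves were longer in TERRA KD, with 41384 and 21718 peaks against 7321 and 13652 in scramble KD. When each pair of lists was cut to equal numbers of peaks by rank, the difference was 0.608 points (p = 0.33, exact permutation test), and with ChIP peaks of −log10 p at least 5 it was 0.133 points. The longest list, of TERRA KD replicate 1, came from the library with the fewest tags, and the part of list length in the difference was not tested. Chromosomes 6 and 8 held 12.8% of the lost sites and 21.3% to 38.5% of those with an ATRX peak, but the ATRX lists as a whole had 17.6% to 31.4% of their peaks there. Without these chromosomes the difference was 1.85 points.

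Set against retained sites, the lost sites had fewer ATRX peaks in TERRA KD. The retained sites carried one at 0.800% and 0.406% in scramble KD and at 8.15% and 3.54% in TERRA KD. The lost sites were lower in 3 of 4 libraries, with a mean difference of −1.60 points (exact sign-flip permutation p = 0.25, two-sided, smallest possible 0.13). In scramble KD replicate 2 the lost sites were higher, by 0.0883 points. In windows of 500 bp and with retained sites weighted to the strength of the lost ones, the mean difference was −0.805 points (p = 0.5, exact), and with ChIP peaks of −log10 p at least 5 it was −0.128 points. Intermediate sites carried an ATRX peak at 4.41% in TERRA KD replicate 1 and 2.21% in replicate 2, against 3.04% and 2.28% at lost sites.

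**Figure D4:**
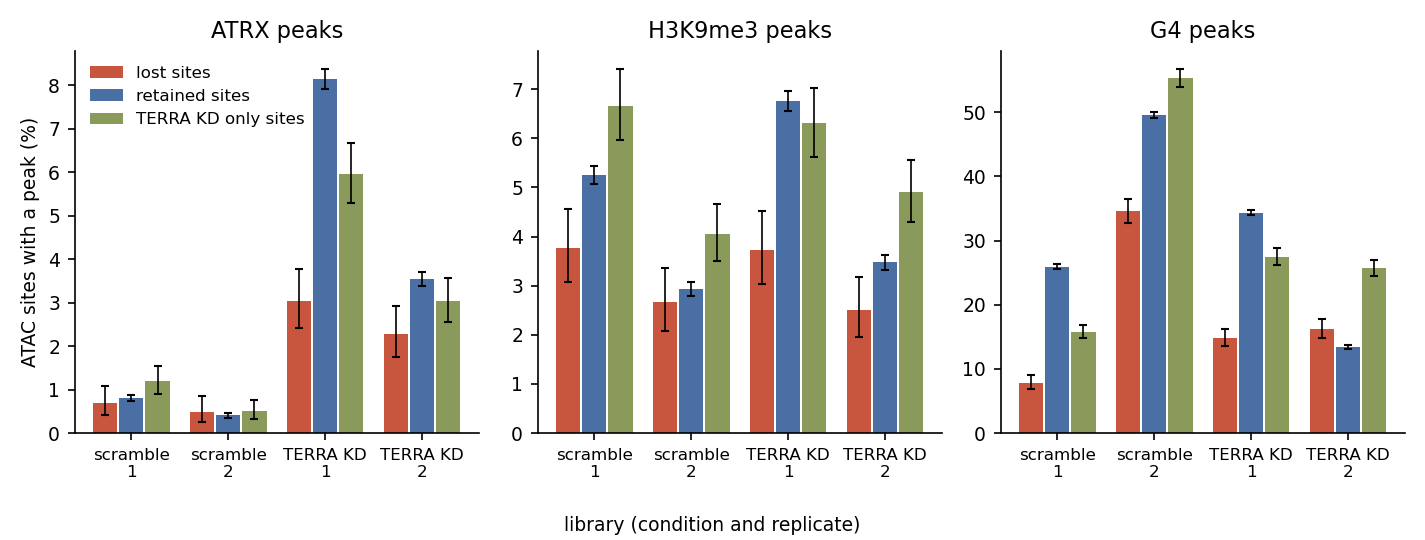
Bars give the percent of lost, retained and TERRA KD only ATAC sites that overlap a peak of ATRX, H3K9me3 or G4 in each of the 4 libraries of that assay, with 95% exact intervals. The lost sites are below the TERRA KD only sites in all 12 libraries and below the retained sites in 10 of them.

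Of the 2630 sites, 2480 (94.3%) had no ATRX peak in any list. An ATRX peak in both TERRA KD lists and neither scramble KD list was found at 5 lost sites, 0.190% (0.0618 to 0.443), against 0.501% of all replicated sites. The reverse pattern, both scramble KD lists and neither TERRA KD list, was found at 0 lost sites, for which the exact interval reaches 0.140%, and at 0.00303% of all replicated sites.

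The highest of the 5 was a site in an intron of Dnm2, which encodes dynamin 2, a GTPase of endocytosis, at chr9:21455188-21456065. Its ATRX peaks held 7 tags in TERRA KD replicate 1 and 10 in replicate 2. Dnm2 also held 3 lost sites among its 8 replicated ones. The second lay 9162 bp upstream of Fpgs, a folate enzyme, at chr2:32703085-32703510, with ATRX peaks of 6 and 18 tags. The sites in introns of Scpep1os and of Kif24, a kinesin of centrioles, lay wholly in sequence that the assembly soft-masks as repeat, so reads there can come from other copies. The fifth was an intergenic site nearest to 1700030C10Rik, at chr12:20228946-20229409, with ATRX peaks of 23 and 104 tags. These last 3 sites carried an H3K9me3 peak in all 4 lists.

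ATRX peaks in all 4 lists were found at 4 lost sites, 0.152% against 0.124% of all replicated sites. Of these, 2 had Erdr1 as the nearest gene, 1 placed on chrX and 1 on chrY, and 1 placed on chrY had G530011O06Rik. In this XX line the sites placed on chrY are not evidence of Y loci and may not be separate from X copies. At the Erdr1 site of chrY, the ATRX peaks of scramble KD held 45 and 38 tags and those of TERRA KD 106 and 42, values that are not scaled to depth. The fourth lay 37828 bp from the TSS of Ccr1, a chemokine receptor.

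Lost sites with an ATRX peak more often carried an H3K9me3 peak in the library of the same condition and number, for which both assays share their input. Of the 80 lost sites with an ATRX peak in TERRA KD replicate 1, 19 (23.8%) also had an H3K9me3 peak, against 3.73% of all lost sites. In TERRA KD replicate 2 it was 12 of 60, against 2.51% of all lost sites. In scramble KD it was 6 of 18 and 3 of 13. The matching shares at retained or all replicated sites were not calculated. Whether this overlap is particular to the lost sites was therefore not tested.

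H3K9me3 peaks lay on few of the lost sites in either condition. They lay on 99 (3.76%) and 70 (2.66%) of the sites in scramble KD replicates 1 and 2, and on 98 (3.73%) and 66 (2.51%) in TERRA KD. Over all replicated sites, scramble KD lists marked 5.12% and 2.87%, and TERRA KD lists 6.45% and 3.42%. At the lost sites the mean difference between conditions was −0.0951 points, smaller than the distance between the replicates of either condition (exact permutation p = 0.667, two-sided).

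The lost sites had fewer H3K9me3 peaks than the retained sites in 4 of 4 libraries, with a mean difference of −1.44 points (exact sign-flip permutation p = 0.13, two-sided, the smallest possible). The difference was widest in TERRA KD replicate 1, with 3.73% of lost and 6.75% of retained sites, and narrowest in scramble KD replicate 2, with 2.66% and 2.93%. In windows of 500 bp it was −0.865 points (p = 0.375, exact). Against the sites found in TERRA KD only, a comparison added after the data were seen, the difference was −2.31 points, again in 4 of 4 libraries (p = 0.13, exact). Intermediate sites carried an H3K9me3 peak at 4.52% and 2.47% in scramble KD, and at 4.93% and 3.31% in TERRA KD. They too were below the retained sites in 4 of 4 libraries.

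H3K9me3 peaks in all 4 lists covered 20 lost sites, 0.760% (0.465 to 1.17), against 0.800% of all replicated sites. Besides the Erdr1 site of chrX, the highest was in an intron of Trim24, a chromatin reader and ubiquitin ligase, at chr6:37925794-37926057, with ATAC pileups of 7 and 8. An intergenic site near the olfactory receptor gene Olfr19, at chr16:16664494-16665200, had pileups of 13 and 7. H3K9me3 in both TERRA KD lists and neither scramble KD list was found at 4 lost sites, 0.152% against 0.309% of all replicated sites. The highest lay 3014 bp from the start of the pseudogene Rps19-ps3, at chr4:147819012-147819305, with 96.0% of its 300 bp window soft-masked. The same number, 4, showed the reverse pattern, for which the background was 0.112%. No list marked 2461 lost sites, 93.6% against 90.3%.

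G4 peaks were the most frequent of the 3 marks, and their libraries did not fall into order by condition. They lay on 207 (7.87%) and 910 (34.6%) of the lost sites in scramble KD replicates 1 and 2, and on 390 (14.8%) and 427 (16.2%) in TERRA KD. Over all replicated sites, scramble KD lists marked 23.7% and 48.0%, and TERRA KD lists 32.0% and 13.8%. At the lost sites, TERRA KD was higher by 6.96 points in replicate 1 and the difference in replicate 2 was −18.4 points, and the mean difference of −5.70 points was smaller than the distance between the scramble KD libraries (exact permutation p = 1, two-sided). The G4 libraries ranged from 140119 to 389434 peaks, and scramble KD replicate 2 was the deepest and had the most.

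Retained sites carried a G4 peak at 25.9% and 49.6% in scramble KD, and at 34.3% and 13.4% in TERRA KD. The lost sites were lower in 3 of 4 libraries, with a mean difference of −12.4 points (exact sign-flip permutation p = 0.25, two-sided). In TERRA KD replicate 2 they were higher, by 2.83 points. With retained sites weighted to the strength of the lost ones in windows of 500 bp, the difference was −11.9 points (p = 0.13, exact). Against sites found in TERRA KD only it was −12.7 points, lower in 4 of 4 libraries (p = 0.13, exact). Intermediate sites carried a G4 peak at 11.1% and 39.9% in scramble KD, and at 18.7% and 16.3% in TERRA KD. They too were below retained sites in every library but TERRA KD replicate 2.

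A G4 peak in both scramble KD lists and neither TERRA KD list was found at 20 lost sites, 0.760% (0.465 to 1.17), against 2.85% of all replicated sites. The highest lay in an exon of Eif4h, an initiation factor of translation, at chr5:134620404-134620863, with G4 peaks of 7 and 67 tags. Other sites of this kind lay 206 bp upstream of Tor1aip2, which encodes a protein of the nuclear envelope, at chr1:156035373-156035636, and 353 bp upstream of Ssbp4, at chr8:70608536-70608952. The Crp site printed above, 62366 bp from the gene of C-reactive protein, had G4 peaks of 5 and 14 tags and holds no G4 motif in its window. The remaining named sites of this kind were nearest to Gm21119, Nedd4l, Zfp677 and Gpr84. The opposite pattern, both TERRA KD lists and neither scramble KD list, was found at 5 lost sites, 0.190% against 0.291%, and all 4 lists marked 89, or 3.38% against 4.46%.

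The lost sites differed from retained sites in base composition. The median GC content of 300 bp around the summit was 47.7% (quartiles 43.7 and 51.7) for 2626 lost sites on assembled chromosomes and 53.7% (48.0 and 61.3) for 56565 retained sites. Weighting retained sites to the strength of the lost ones gave 52.3%, and sites found in TERRA KD only had 51.0%. Intermediate sites had 49.0% (quartiles 44.7 and 53.3), near the lost sites. Away from promoters, over 1 kb from a TSS, the medians were 47.3% for lost, 48.3% for intermediate and 51.3% for retained sites. The lost windows held a median of 3 CpG, the intermediate ones 4 and the retained ones 7. Over 50% of the window was soft-masked at 407 lost sites (15.5%) and at 20.3% of retained sites, while the median masked part of the window was 11.7% at lost and 9.0% at retained sites.

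A G4 motif, 4 runs of at least 3 G or C separated by loops of 1 to 7 bases, was in the window of 157 lost sites, 5.98% (5.10 to 6.96), against 10.6% of retained and 10.1% of all replicated sites. Away from promoters it was 5.47% (4.61 to 6.44) of lost and 7.23% of retained sites. Intermediate sites had 6.92% (6.32 to 7.56), and 5.86% (5.28 to 6.48) away from promoters. Both of these intervals overlap those of the lost sites. Sites found in TERRA KD only had 7.89%. Among lost sites, those with the motif more often carried a G4 peak in every library, from 20.4% against 7.09% in scramble KD replicate 1 to 59.9% against 33.0% in scramble KD replicate 2. In TERRA KD it was 36.9% against 13.4% and 29.9% against 15.4%. At retained sites the shares with and without the motif were 42.5% against 24.0% and 62.1% against 48.1% in scramble KD. In TERRA KD they were 50.1% against 32.5% and 13.5% against 13.4%. The telomeric hexamer TTAGGG in a tandem pair was in 0 of the 2626 lost windows, for which the exact interval reaches 0.140%, and in 103 of 56565 retained ones, 0.182%. Retained sites weighted to the strength of the lost ones had 0.0965% and intermediate sites 0.0302%, both inside that interval.

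Short motifs were searched on both strands in the same windows, each share set against all replicated sites. The motifs were the octamer ATGCAAAT bound by POU5F1, CATTGTT for SOX factors, TCAAGGTCA for ESRRB and GGGNGTGGC for KLF factors. CCANNAG directly followed by NNGGC stood for the CTCF core, GGGGCGGGG for SP factors, GCGCN directly followed by TGCGC for NRF1, CCGGAAGT for ETS factors and AAGATGGCG for YY1. TGANTCA stood for AP-1 and CATTCCA for TEAD factors. KLF and SP letters can overlap with each other and with G4 motifs.

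The SOX motif was in 184 lost windows, 7.01% (6.06 to 8.05), against 4.77% of all replicated and 4.49% of retained sites. The SOX share stayed higher away from promoters, at 7.16% against 5.72%. Intermediate sites had 6.23% (5.66 to 6.83), with an interval that overlaps that of the lost sites. The octamer was in 88, 3.35% against 2.88%, but away from promoters in 3.38% against 3.42%, and the ESRRB motif in 30, 1.14% against 1.02%. The YY1 motif was in 11, 0.419% (0.209 to 0.748), against 4.86% of all replicated sites. Away from promoters the YY1 share was 0.443% of lost, 5.81% of all replicated and 6.80% of retained sites. It was also low at intermediate sites, 1.22% (0.971 to 1.52), and at sites found in TERRA KD only, 1.62% (1.27 to 2.02). Retained sites weighted to the strength of the lost ones had 3.73%. The CTCF core was in 81, 3.08% (2.46 to 3.82), against 4.59%, and in 7.04% of the sites found in TERRA KD only. AP-1 letters were in 9.37% against 8.52% and TEAD letters in 4.61% against 4.53%, and away from promoters both were lower in the lost sites, 9.54% against 9.86% and 4.51% against 5.09%. The KLF motif was in 3.12% against 4.72% and the SP motif in 0.952% against 4.40%. The NRF1 motif was in 0.343% against 1.71% and the ETS motif in 0.419% against 1.55%. For both of these, intermediate sites were as low, at 0.362% and 0.437%, and away from promoters the intervals of the lost sites (0.0887 to 0.525 and 0.193 to 0.739) held the shares of all replicated sites, 0.411% and 0.556%.

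**Figure D5:**
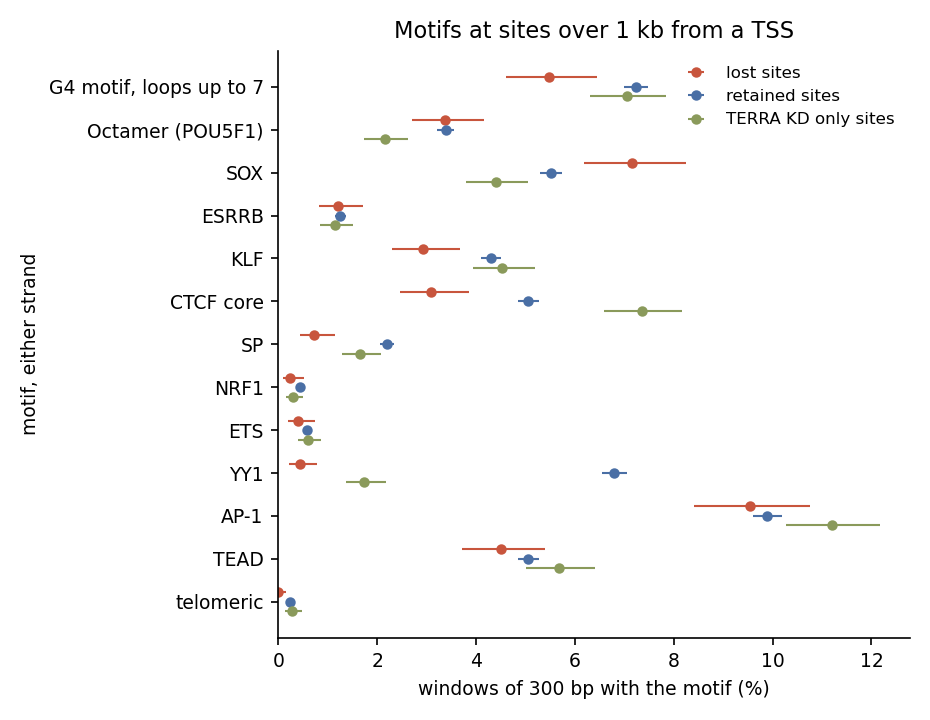
Points give the percent of 300 bp windows with each motif among lost, retained and TERRA KD only sites over 1 kb from a TSS, with 95% exact intervals. The SOX motif reaches 7.16% of lost windows and the YY1 motif 0.443%, against 5.51% and 6.80% of retained ones. In TERRA KD only windows the SOX motif reaches 4.40% and the YY1 motif 1.74%.

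A lost site lay in the gene body or within 10 kb of a TSS for 1773 of 26180 genes (6.77%), and for 1541 of 21000 protein-coding genes (7.34%), which is the background for the gene lists. A retained site was found for 28 of 28 pluripotency genes and for each gene of the other lists but the feeder markers, where it was 8 of 12, against 79.9% of all protein-coding genes, so the counts of lost sites are not like for like with that background.

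Among 28 pluripotency genes, 4 (14.3%) had a lost site. The site of Tfcp2l1, a transcription factor of naive ES cells, lay 1425 bp upstream of its TSS at chr1:118626315-118626849. Its pileup was 17 in scramble KD replicate 1 and 31 in replicate 2, with TERRA KD peaks 333 and 233 bp away. The site of Zfp42, the ES cell marker REX1, lay 10893 bp from the TSS in an exon, at chr8:43295734-43296232, with pileups of 15 and 21. The site of Dppa4 lay 1789 bp upstream, with pileups of 8 and 13, and that of Nr5a2, a nuclear receptor, in an intron, with 6 and 5. At each of the 4 genes a retained site lay within 1 kb of a TSS.

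Among 20 lineage transcription factors, Gata4, Otx2 and Mesp1 (15.0%) had a lost site. The Otx2 site, 1346 bp upstream of the nearest Otx2 TSS at chr14:48668743-48669191, had pileups of 22 and 15. The Mesp1 site, at chr7:79789364-79789948, had pileups of 12 and 14, and the Gata4 site 10 and 15. Of 28 genes of self-renewal signalling, 3 (10.7%) had one. The site of Lifr, the LIF receptor, lay 838 bp into the gene at chr15:7141212-7141501, with pileups of 8 and 9, that of Smad7 in an intron with 8 and 8, and that of Tcf7l1 in an intron with 10 and 10, beside 18 retained sites of that gene.

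Among genes of ATRX and the H3K9 methylation machinery, lost sites lay at Ehmt1 and Cbx1. The site of Ehmt1, an H3K9 methyltransferase, lay in an intron at chr2:24890692-24891309, with pileups of 7 and 9. The site of Cbx1, which encodes an HP1 protein, lay 2114 bp upstream at chr11:96786884-96787155, with 10 and 24. Neither lay within 1 kb of a TSS of its gene. Of 15 telomere maintenance genes, 1 (6.67%), the helicase gene Rtel1, had a lost site, in an exon 1599 bp from a TSS, with pileups of 11 and 19. Of 14 stress and damage genes, Hspa1a and Hspa1b, neighbouring heat shock genes, shared 1 site with pileups of 7 and 7.

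Of the 12 feeder fibroblast markers, Dcn, which encodes the matrix protein decorin, had a lost site, 26 bp upstream of its TSS at chr10:97479390-97479690. Its pileup was 6 in scramble KD replicate 1 and 7 in replicate 2, and the nearest TERRA KD peaks were 83305 and 83285 bp away. It was the one gene of the lists, of 17 with a lost site, without a retained site within 1 kb of a TSS. Col3a1, Lum and Postn had no peak at a TSS in any of the 4 lists, while Col1a1, Col1a2, Thy1, Twist1 and Twist2 had one in all 4. Pdgfrb had one in all lists but TERRA KD replicate 1, and Prrx1 and Acta2 had one in TERRA KD replicate 2 only. The part of remaining feeder cells in the lost sites was not tested.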

How the data were processed

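The 16 deposited peak lists (ATRX, H3K9me3, G4 and ATAC, 2 libraries per condition) were used. Per the submitters' processing notes the tools were Trim Galore 0.5.0, Bowtie2 2.3.4.1, SAMtools 1.9 and deepTools 3.1.1, on GRCm38/mm10. Per the file headers, the authors called ATAC peaks with MACS 2.2.7.1 without input, and ChIP peaks against an input with MACS 1.4.3 (ATRX, H3K9me3) or 1.4.2 (G4), per library, at a p cutoff of 0.01. Per peak, the authors deposited the summit pileup signal (ATAC) or the count of tags in the peak (ChIP), a fold enrichment, a score, and −log10 of the p-value. Values are not scaled between libraries, and depth was read from the headers. ATRX and H3K9me3 libraries of the same number share an input.

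Sites were joined by an overlap of at least 1 bp and annotated with the curated transcripts of RefSeq for GRCm38 (45756 transcripts, 26180 genes, 21000 of them protein-coding). Sequence features were read from 300 bp around the summit. Conditions were compared over libraries by exact permutation tests, and lost with other sites by exact sign-flip tests over the 4 libraries of an assay. With 2 libraries against 2 the smallest p is 0.33, and with 4 sign flips 0.13. Retained sites were also weighted to the lost ones in 10 bins of −log10 p. Shares carry 95% exact Clopper-Pearson intervals. Python 3.11.15, numpy 2.4.6, pandas 2.3.3, scipy 1.17.1, pysam 0.24.0 and matplotlib 3.10.9 were used, and the overlap and test code was tested on simulated data.

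Sites were ranked by the lower −log10 p over both scramble KD lists. Named were the 12 highest (13, since the last place was tied), the 10 highest within 1 kb of a TSS, up to 8 each with an ATRX or H3K9me3 peak in TERRA KD only, a G4 peak in scramble KD only or H3K9me3 in all lists, and the genes of the lists with a lost site. Sites with ATRX peaks in all lists and Bcas3 were named after their values were seen. The sites and gene lists were chosen with earlier results of these data known. Alternatives changed the overlap, peak cutoffs, windows, TSS distance, motif loops, comparison sites and libraries. The count over the list of ATRX and H3K9 methylation machinery is not reported here.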

Additional observations from a re-analysis of the deposited data

Results flagged for a closer look

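The H3K9me3 peak share differed between conditions with opposite signs at lost and retained sites. At lost sites TERRA KD minus scramble KD was −0.0380 points in replicate 1 and −0.152 in replicate 2, and at retained sites it was 1.50 and 0.545. The values at lost sites rest on 99 against 98 and 70 against 66 sites of 2630, and their mean turned to 0.266 with ChIP peaks of −log10 p at least 5. The mean difference between the changes, lost minus retained, was −1.12 points. It was singled out because both replicate pairs went one way at lost sites and the other way at retained sites, and the difference itself was not tested.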

How the results depend on the processing

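The number of lost sites fell to 565 when both scramble KD peaks had to reach a −log10 p of 5, while TERRA KD peaks of any strength still counted. It was 1801 when the cutoff applied to all 4 lists. With 1 replicate per condition it was 16615 to 17987, since no second library had to share the call. The TERRA KD minus scramble KD difference at lost sites, leaving out each replicate in turn, was 1.79 to 2.36 points for ATRX, −0.152 to −0.0380 for H3K9me3 and −18.4 to 6.96 for G4, which turned positive without replicate 2. The H3K9me3 difference also reversed, to 0.266, with ChIP peaks of −log10 p at least 5; the cause was not tested. That cutoff left an ATRX difference of 0.133. The same range for lost minus retained was −2.61 to −0.586 for ATRX, −2.26 to −0.619 for H3K9me3 and −18.8 to −6.07 for G4. With the replicate number as a block, the differences were 2.07 (p = 0.5, exact), −0.0951 (p = 0.5, exact) and −5.70 (p = 1, exact). No call at 0.05 was possible with or without the block. Same-numbered libraries deviated together over 1 Mb stretches with r of 0.361 for H3K9me3, 0.489 for G4, 0.191 for ATAC and 0.00739 for ATRX, but the labels do not say that a number marks a shared day.

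The promoter share was 3.80% within 500 bp, 15.7% within 5 kb and 3.72% for sites with no TERRA KD peak within 500 bp. Its difference from retained sites was −19.3 points within 5 kb, −20.9 from the summit, −23.5 with no TERRA KD peak within 500 bp and −13.7 with weighted retained sites. The G4 motif share was 7.69% in the called peak, where lengths differ, and 11.04% with loops up to 12 bases, with differences of −13.8 and −10.3 points. The GC difference was −5.38 in the called peak and −4.67 with weighted retained sites. Peak lists hold no values below the cutoff, so partial loss or gain of reads was not measured.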
